A study of Mus musculus with 19 samples.

Results

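Doc2b, Pla2g2f, C1ql2, Cemip, Grem1, Trpc6 and Il1r1 are 7 protein-coding genes, among 51789 genes in the count table, that were chosen because their RNA was much lower in hippocampus carrying the tetracycline transactivator tTA than in hippocampus without it. The values that chose them are those of the tTA+ and tTA- mice of experiment 2, so their tTA differences are given below as a description, with no test. In experiment 1 all mice were tTA+, and the values there played no part in the choice as it is stated.

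RNA was measured by sequencing ribosomal-RNA-depleted total RNA in dorsal hippocampus taken from C57BL/6J males aged 2 to 4 months, giving 19 libraries. In experiment 1, 5 libraries came from tTA+/DN+ mice and 6 control libraries from tTA+/DN- mice, and all 11 came after exposure to SOR, an abbreviation the labels do not spell out. DN encodes a dominant-negative version of Nr4A nuclear receptors, transcription factors that neurons induce during learning. In experiment 2 all 8 libraries were DN-: SOR replicate 1 and homecage replicates 1 and 2 were tTA-, while SOR replicates 2 to 4 and homecage replicates 3 and 4 were tTA+.

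The transactivator is a bacterial repressor fused to a viral activation domain, which switches on transgenes placed under a tet promoter and the labels name no such transgene besides DN. The promoter that drives it here, and the line's insertion, are not given in the sources used here, and with 3 tTA- libraries, of which 1 followed exposure to SOR, the genotype is compared on few samples. Replicates are separate samples by their labels, which do not say that each is a separate mouse, so standard deviations and p-values measure only the spread between these libraries, and a mouse counted below is the source of 1 library.

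The genes belong to different pathways. Doc2b is a high-affinity calcium sensor for spontaneous and asynchronous release of transmitter, and Pla2g2f is a secreted phospholipase A2. C1ql2 is a C1q-like protein that granule cells of the dentate gyrus release from their mossy fibres, where it helps to organise the synapses on CA3 cells. Cemip is needed to break down hyaluronan, a sugar polymer of the extracellular matrix, and Grem1 is a secreted antagonist of bone morphogenetic proteins (BMPs). Trpc6 is a cation channel opened by diacylglycerol, and Il1r1 is the signalling receptor for interleukin-1. Within the mouse hippocampus C1ql2, Cemip, Trpc6 and Il1r1 are known for expression in the dentate gyrus, and Il1r1 is found in the endothelium of brain vessels as well. No such statement is made here for Doc2b, Pla2g2f and Grem1.

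The genes lie on 6 chromosomes of the GRCm38 build, as annotated in GENCODE M21. Doc2b (ENSMUSG00000020848.7) spans chr11:75768966-75796049 on the minus strand with 9 exons. Pla2g2f (ENSMUSG00000028749.7) spans chr4:138750533-138757626 on the minus strand with 5 exons. C1ql2 (ENSMUSG00000036907.9) spans chr1:120340582-120343174 on the plus strand with 2 exons. Il1r1 (ENSMUSG00000026072.12) is on the same chromosome at chr1:40225080-40317257, on the plus strand with 17 exons. Cemip (ENSMUSG00000052353.13) spans chr7:83932857-84086502 on the minus strand with 35 exons. Grem1 (ENSMUSG00000074934.3) spans chr2:113746164-113758646 on the minus strand with 2 exons, and Trpc6 (ENSMUSG00000031997.9) spans chr9:8544142-8680741 on the plus strand with 17 exons. Doc2b and Trpc6 each overlap an annotated transcript on the opposite strand (Gm12339 and Gm32014), and Il1r1 overlaps Gm38070 on its own strand. Whether the authors' counting used strand is not given in the sources used here, so reads of these overlaps cannot be assigned for certain.

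Because the 7 genes were low together, the stretch just before their transcription starts was read for shared short motifs. RefSeq sequence on GRCm38.p6 was found for 6 of the 7 genes, and the window of Pla2g2f runs into its annotated exon. The searched motifs, on both strands, were the TATA box (TATAAA), the CCAAT box (CCAAT), the cyclic AMP response element TGACGTCA and the Nr4A monomer site AAAGGTCA. The 250 bases before the start are shown for C1ql2 and Trpc6, the genes with the highest levels per length, and for Cemip and Grem1, the only genes with a motif on their own strand. Capitals mark that motif, and the strand of the gene is the strand printed.
C1ql2, chr1:120340332-120340581, plus strand: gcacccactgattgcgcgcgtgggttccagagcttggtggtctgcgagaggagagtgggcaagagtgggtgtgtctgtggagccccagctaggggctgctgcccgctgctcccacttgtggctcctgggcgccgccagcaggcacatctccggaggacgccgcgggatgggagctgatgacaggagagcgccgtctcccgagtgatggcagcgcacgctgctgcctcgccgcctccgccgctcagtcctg
Trpc6, chr9:8543892-8544141, plus strand: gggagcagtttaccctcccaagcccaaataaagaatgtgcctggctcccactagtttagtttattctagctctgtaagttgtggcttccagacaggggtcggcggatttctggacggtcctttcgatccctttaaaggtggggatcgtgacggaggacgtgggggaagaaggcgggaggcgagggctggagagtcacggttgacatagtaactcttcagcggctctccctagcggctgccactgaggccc
Cemip, chr7:84086506-84086755, minus strand: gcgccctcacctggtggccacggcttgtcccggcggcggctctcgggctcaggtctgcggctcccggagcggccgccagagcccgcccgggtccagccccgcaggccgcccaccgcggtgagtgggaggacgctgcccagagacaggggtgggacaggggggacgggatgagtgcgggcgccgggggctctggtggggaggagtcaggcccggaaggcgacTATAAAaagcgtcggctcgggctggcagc
Grem1, chr2:113758649-113758898, minus strand: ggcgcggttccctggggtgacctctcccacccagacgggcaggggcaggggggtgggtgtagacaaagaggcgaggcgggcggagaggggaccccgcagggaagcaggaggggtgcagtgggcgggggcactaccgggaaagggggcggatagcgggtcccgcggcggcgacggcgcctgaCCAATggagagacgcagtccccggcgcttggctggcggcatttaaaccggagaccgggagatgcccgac

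Cemip had TATAAA at 29 to 24 bases before its start, a motif found in 12.4% of 32817 windows of the same length. Grem1 had CCAAT at 69 to 65 bases before its start, and the second of the 2 windows of Il1r1 had it on the opposite strand, against 33.8% of all windows. TGACGTCA, found in 1.55% of all windows, and AAAGGTCA, found in 1.34%, were in none of the windows of the 6 genes. The windows of Cemip, Grem1 and C1ql2 were rich in G and C (75.2%, 72.0% and 68.8%), those of Pla2g2f (56.8%) and Trpc6 (56.4%) less so. The 2 windows of Il1r1 had 48.4% and 60.4%, and the median of all windows was 52.4%. No motif was thus shared by all 6 genes in this stretch, which says only that these letters are not in these windows.

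Library totals ran from 22258159 to 66991576 counts, and SOR replicate 3 of experiment 2 was the smallest. Levels are given as CPM, counts scaled to a common library total and by TMM, which corrects for differences in library composition. The markers of hippocampal fields CA1, CA2, CA3 and of dentate granule cells were above 0 in all the groups, and the summed level of 10 granule cell markers was between 683 and 1080 CPM. Choroid plexus markers, from tissue lying against the hippocampus, varied most between libraries: their summed level was 70.7 to 1016 CPM in tTA- and 26.5 to 2206 CPM in tTA+ libraries of experiment 2, 27.1 to 1606 CPM in DN libraries and 21.1 to 4019 CPM in experiment 1 controls.

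In experiment 2 the 3 tTA- libraries stood above the 5 tTA+ libraries for each of the 7 genes. The mean in tTA+ was between 14.4% (Pla2g2f) and 43.3% (Trpc6) of the mean in tTA-. Of the 23659 genes tested in this comparison, 3.45% had all tTA+ libraries below all tTA- libraries, 0.786% had a log2 fold change under -1, and 0.363% (86 genes) were called at an adjusted p under 0.05 by edgeR's quasi-likelihood test, 0.254% as lower. Leaving out 1 library moved the 86 to between 10 (without SOR replicate 1) and 288 (without SOR replicate 3). That the 7 genes are among these sets follows from how they were chosen. RNA was taken from whole tissue, so fewer cells of a type and less RNA per cell cannot be told apart.

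**Figure D1:**
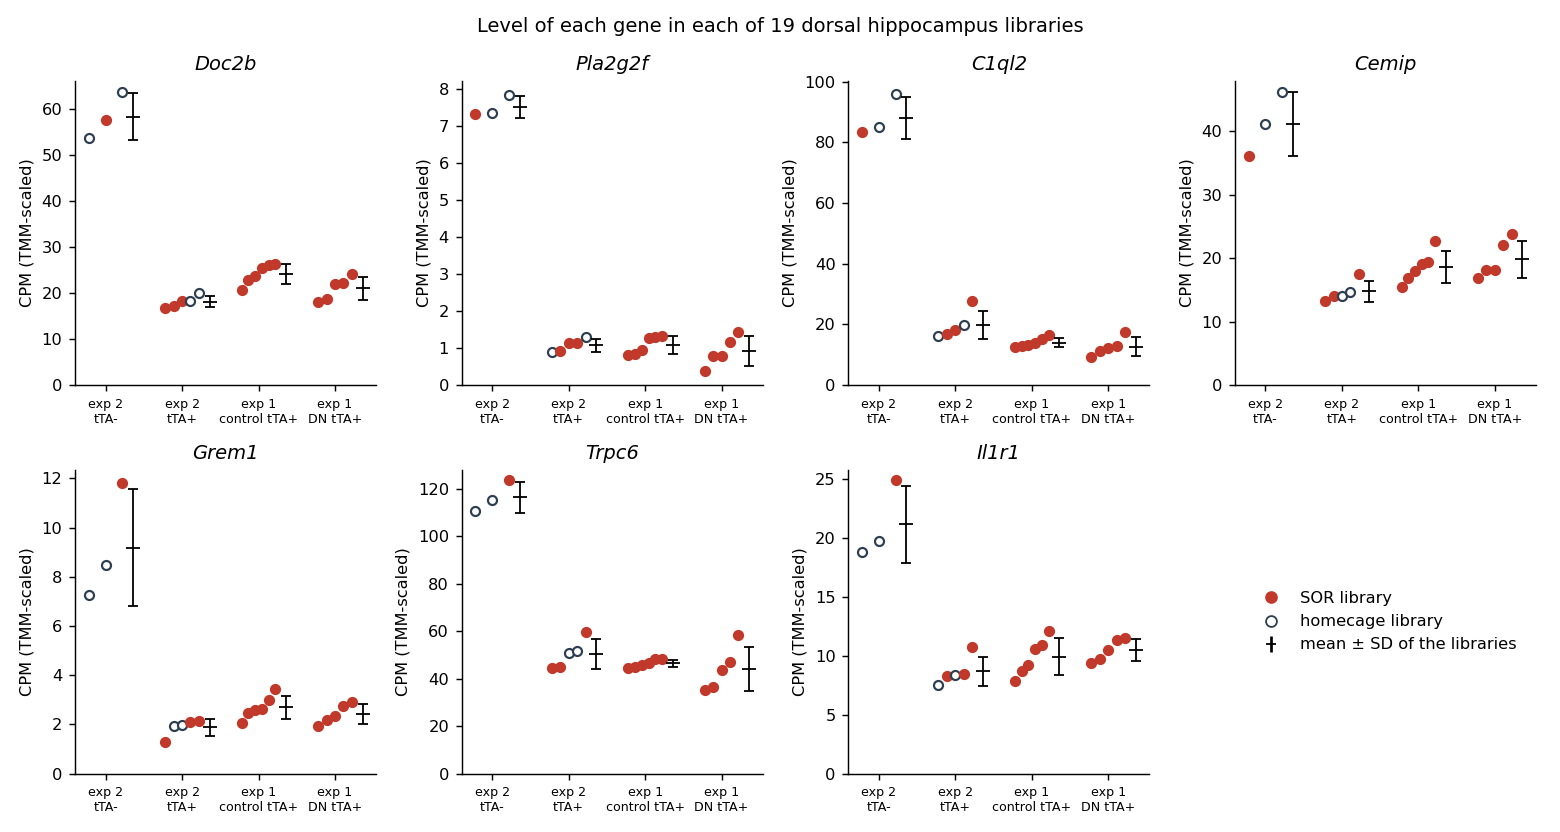
Level of each of the 7 genes in each of 19 libraries, in TMM-scaled CPM on linear axes that start at 0; filled circles are SOR libraries, open circles homecage libraries, and bars the mean ± SD. In every panel the 3 tTA- libraries sit above all 16 tTA+ libraries, those of experiment 1 included.

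Doc2b was at 53.6, 63.6 and 57.6 CPM in the tTA- mice (homecage replicates 1 and 2 and SOR replicate 1). The tTA+ SOR mice, replicates 2 to 4, had 18.2, 17.2 and 16.8 CPM, and homecage replicates 3 and 4 had 18.3 and 19.96 CPM. The tTA+ libraries were tightly grouped, 18.1 ± 1.23 CPM (SD, n = 5), and the lowest tTA- library was 2.69 times the highest of them. The log2 fold change was -1.67 (SE 0.0973).

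Pla2g2f, the secreted phospholipase, had few reads in every tTA+ library. It was at 7.36, 7.84 and 7.33 CPM in the tTA- mice (homecage replicates 1 and 2, SOR replicate 1), 214 to 344 counts a library. The tTA+ SOR mice had 0.913, 1.15 and 1.14 CPM and the tTA+ homecage mice 1.30 and 0.891 CPM, 23 to 87 counts. Its log2 fold change of -2.78 (SE 0.177) was the lowest of all 23659 genes tested.

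C1ql2, the mossy fibre organiser, was at 95.9 and 85.0 CPM in the tTA- homecage mice and at 83.4 CPM in the tTA- mouse exposed to SOR. The tTA+ mice had 18.2, 27.6 and 16.7 CPM after SOR and 19.9 and 16.1 CPM in the homecage. The value of 27.6 CPM came from SOR replicate 3, the smallest library, and was the highest of the tTA+ libraries, and the gap to the lowest tTA- library remained 3.02-fold. The log2 fold change was -2.20 (SE 0.159).

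Cemip, of hyaluronan breakdown, was at 41.2 and 46.3 CPM in the tTA- homecage mice and 36.2 CPM in the tTA- SOR mouse. The tTA+ SOR mice had 13.3, 17.6 and 14.1 CPM and the tTA+ homecage mice 14.1 and 14.8 CPM, with a log2 fold change of -1.47 (SE 0.117). Here too SOR replicate 3 was the highest tTA+ library.

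Grem1, the BMP antagonist, was at 7.25 and 8.49 CPM in tTA- homecage mice and at 11.8 CPM in the tTA- SOR mouse, its highest library. The tTA+ mice had 2.11, 1.30 and 2.13 CPM after SOR and 1.96 CPM in both homecage libraries. The log2 fold change was -2.29 (SE 0.203), the widest error of the 7 genes, and the tTA- libraries spread over 9.19 ± 2.36 CPM (SD, n = 3).

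Trpc6, the cation channel, was at 115 and 111 CPM in tTA- homecage mice and at 124 CPM in the tTA- SOR mouse. Among tTA+ mice the SOR libraries held 44.6, 44.9 and 59.7 CPM and the homecage libraries 51.1 and 51.7 CPM. With a log2 fold change of -1.21 (SE 0.114) it had the smallest difference of the 7 genes and stood 95th from the lowest among all genes tested.

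Il1r1, the interleukin-1 receptor, was at 19.8 and 18.8 CPM in tTA- homecage mice and at 24.9 CPM in the tTA- SOR mouse. The tTA+ mice had 10.7, 8.30 and 8.47 CPM after SOR and 8.38 and 7.56 CPM in the homecage, a log2 fold change of -1.345 (SE 0.125). The gap between the lowest tTA- and the highest tTA+ library, 1.75-fold, was the narrowest of the 7 genes. The 6 markers of the endothelium, which expresses Il1r1 as well, summed to 192 to 203 CPM in tTA- and 178 to 198 CPM in tTA+ libraries, ranges that overlap. Their part in the level of Il1r1 was not tested.

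By fold, the choice of genes has no sharp edge. Among the 60 genes called lower in tTA+, Htr4, a serotonin receptor gene named here after its values were seen, had a log2 fold change of -1.22 and was left out, next to Trpc6 at -1.21, which was included. Trpc6 stood 20th by fold among the 60, and most of the genes with a larger fall than Trpc6 were left out as well. Ranked by the p of edgeR instead, the 7 genes held places 1 to 4 and 6 to 8 among the 60, with Htr4 at 5.

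The same libraries, from which the genes were chosen, can be set out by exposure, as a description whose sign the choice fixes. Within the homecage mice (2 tTA+ against 2 tTA-) the difference of mean log2 CPM ran from -1.13 (Trpc6) to -2.76 (Pla2g2f), and within the SOR mice (3 against 1) from -1.28 (Cemip) to -2.73 (Pla2g2f). Grem1 had -1.97 in the homecage and -2.68 after SOR. The test of whether the tTA difference depended on exposure called none of the 7 genes, and none of 25045 genes tested (0%; 561 genes had an unadjusted p under 0.05). Grem1 had the smallest unadjusted p of the 7 (log2 difference of differences -0.66, SE 0.395, edgeR adjusted p = 0.9999). With 1 tTA- mouse exposed to SOR, this test can show large differences only.

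Per length of exon, the order of the means differed with and without tTA, but the genes that changed places overlapped in tTA+ mice of experiment 2. In tTA- mice C1ql2 was highest at 44.0 ± 3.41 CPM per kb (SD, n = 3), before Trpc6 at 23.0 ± 1.30 and Doc2b at 13.4 ± 1.16, with no overlap between them. Cemip at 3.37, Il1r1 at 3.33 and Pla2g2f at 3.05 CPM per kb did not differ beyond their spread, and Grem1 was lowest at 2.22 ± 0.570. In tTA+ mice of experiment 2 the levels of Trpc6 (9.95 ± 1.22 CPM per kb, SD, n = 5) and C1ql2 (9.85 ± 2.33) overlapped, and Doc2b followed at 4.15 ± 0.281. Il1r1 (1.37) and Cemip (1.21) overlapped, as did Grem1 (0.456) and Pla2g2f (0.438). Pla2g2f thus moved from near the level of Il1r1 and Cemip to below it, which restates the tTA difference on which it was chosen.

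In experiment 1, where every mouse was tTA+, the 7 genes were low in all 11 libraries. All 77 values, 7 genes in 11 libraries, lay below the lowest tTA- library of experiment 2. Of all 23659 genes, 8.99% had their 11 values placed this way, and so did 56 of the 60 genes called lower in tTA+. The tTA- libraries that set this limit were used to choose the genes, which tilts the placement towards lower values, so it is a description. Of the 77 values, 28 lay within the range of the tTA+ libraries of experiment 2, 32 above it and 17 below it. Experiment 1 has no tTA- mouse, so these levels are set against mice of another experiment. In this placement tTA genotype and experiment cannot be told apart.

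Doc2b was at 20.6, 23.8, 26.3, 25.3, 22.9 and 26.0 CPM in controls 1 to 6, and at 24.1, 18.1, 18.6, 22.2 and 21.8 CPM in DN mice 1 to 5. Of these 11 libraries 9 were above all tTA+ libraries of experiment 2, and their mean was 39.0% of the tTA- mean. Pla2g2f ranged from 0.823 to 1.32 CPM with a median of 1.10 CPM in the 6 controls, while DN mice 1 to 5 had 1.44, 0.793, 0.381, 0.795 and 1.15 CPM. The lowest of these values rests on 13 counts, and the mean was 13.3% of the tTA- mean.

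C1ql2 ranged from 12.5 to 16.7 CPM (median 13.5) in controls and was at 17.6, 12.9, 11.4, 9.08 and 12.3 CPM in DN mice. It lay below all tTA+ libraries of experiment 2 in 9 of 11 libraries, at 15.2% of the tTA- mean. Cemip went the other way, with 8 of 11 libraries above the tTA+ range of experiment 2: controls ranged from 15.4 to 22.7 CPM (median 18.5), and DN mice had 18.1, 16.9, 23.8, 18.2 and 22.1 CPM. Its mean was 46.4% of the tTA- mean.

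Grem1 ranged from 2.06 to 3.45 CPM (median 2.61) in controls and was at 2.74, 2.19, 2.35, 2.89 and 1.92 CPM in DN mice, above the tTA+ range of experiment 2 in 9 of 11 libraries. Trpc6 was within that range in 8 of 11 libraries. Its controls were the most even of all, 44.6 to 48.4 CPM (median 46.3), whereas DN mice had 58.6, 36.4, 43.6, 35.2 and 46.9 CPM, lying on both sides of them. Il1r1 ranged from 7.91 to 12.1 CPM (median 9.89) in controls and was at 11.5, 11.4, 9.38, 10.5 and 9.72 CPM in DN mice, within the range in 7 of 11 libraries.

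To show how far the experiments differ where genotype and exposure match, the 6 controls of experiment 1 were set against the 3 tTA+ SOR libraries of experiment 2. These 3 libraries are among those on which the genes were chosen as low, which tilts the difference towards higher values in experiment 1, so it is a description with no test. Doc2b was at 24.2 ± 2.18 CPM (SD, n = 6) in experiment 1 against 17.4 ± 0.732 CPM (SD, n = 3), 0.49 apart on the log2 scale (SE 0.0936). C1ql2 was at 14.0 ± 1.64 against 20.8 ± 5.90 CPM, with its log2 fold change at -0.54 (SE 0.145), and -0.31 without SOR replicate 3 of experiment 2. The log2 fold changes of the other genes were 0.33 for Cemip, 0.52 for Grem1, 0.12 for Il1r1, 0.04 for Pla2g2f and -0.09 for Trpc6. The comparison called 19.2% of all 23102 genes, and nothing is read from the rows of the 7 genes. Of these calls 41.5% were higher in experiment 1, and 63.5% with upper quartile scaling, under which the median of all genes moved from 0.02 to 0.11.

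**Figure D2:**
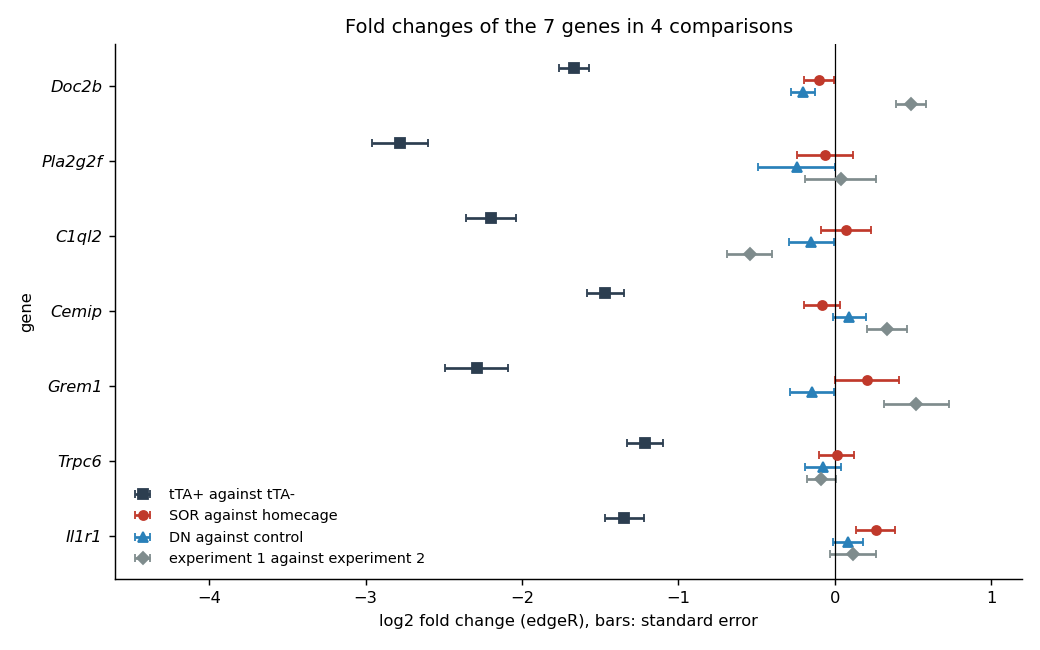
Log2 fold changes of the 7 genes (horizontal axis, edgeR) in 4 comparisons, with bars of 1 standard error. Squares (tTA+ against tTA-, the comparison on which the genes were chosen) lie between -2.78 and -1.21, while the other symbols lie between -0.54 and 0.52.

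The study asks what the dominant-negative Nr4A transgene changes after SOR. None of the 7 genes was called between DN and control mice of experiment 1 (5 against 6), where 0.00893% of 22391 genes (2 genes) were called. Doc2b had a log2 fold change of -0.20 (SE 0.0756), at 20.97 ± 2.56 CPM in DN against 24.2 ± 2.18 CPM in controls, with overlapping ranges (unadjusted p = 0.0143, edgeR adjusted p = 0.999). The other 6 had log2 fold changes between -0.24 (Pla2g2f, SE 0.248) and 0.09 (Cemip, SE 0.105), each with an adjusted p of 0.999. For Trpc6 the means differed by less than the spread, 44.1 ± 9.44 CPM against 46.5 ± 1.599 CPM. All 8 choroid plexus markers had a log2 fold change below 0 in DN mice (median -0.88, none called), while the median of their summed level was higher in DN libraries, 41.4 CPM (27.1 to 1606) against 26.3 CPM (21.1 to 4019) in controls. Their part in these values was not tested.

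SOR against homecage in experiment 2, with tTA in the model, called none of the 7 genes either, and 0.0465% of 23659 genes (11 genes, all higher after SOR; 49 without SOR replicate 3, and 1 without SOR replicate 1 or any 1 homecage library). Il1r1 had the largest difference, a log2 fold change of 0.26 (SE 0.124, edgeR adjusted p = 0.830). The others ran from -0.10 (Doc2b, SE 0.0966, adjusted p = 0.849) to 0.20 (Grem1, SE 0.204, adjusted p = 0.850). Within tTA+ mice the Doc2b level was 17.4 ± 0.732 CPM after SOR (SD, n = 3), against 18.3 and 19.96 CPM in homecage libraries. All 8 choroid plexus markers had a log2 fold change above 0 after SOR (median 1.77, none called), and their summed level was 26.5 to 2206 CPM (median 538) after SOR against 47.7 to 177 CPM (median 73.8) in the homecage. Their part in the SOR values was not tested.

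Lists of genes around each of the 7, and of cell type markers, were counted in the tTA comparison, in which the median log2 fold change of all genes was 0.01. Of 10 markers of dentate granule cells, 3 were called lower in tTA+, against 0.254% of all genes tested: Stxbp6 (log2 fold change -1.13, edgeR adjusted p = 0.0135), Dsp, a desmosomal protein gene (-1.06, 0.0157), and the transcription factor gene Glis3 (-0.87, 0.0134). Tdo2, which breaks down tryptophan, was called higher (0.88, 0.00773). The median of the list was -0.41, with 8 of 10 below 0, and Prox1, the transcription factor that defines granule cells, was at -0.67 (SE 0.182, adjusted p = 0.331). These 4 calls were lost when SOR replicate 1 or any of homecage replicates 1 to 4 was left out, with the direction kept.

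In experiment 2 the summed granule marker level was 683 to 845 CPM in tTA+ libraries against 977 to 1080 CPM in tTA- libraries. This sum includes the 3 markers called lower, and the list was written with earlier results of these data known. Of all genes tested, 3.45% had all tTA+ libraries below all tTA- libraries. The summed granule marker level was 686 to 906 CPM in experiment 1. None of the 10 markers was at 0 in a group. The part of these markers in the levels of the 7 genes was not tested. In the lists of CA1, CA2 and CA3 markers (6, 5 and 5 genes) none was called and the medians were -0.08, -0.24 and -0.18. The smallest p-values there belonged to Fibcd1 (-0.29, adjusted p = 0.691) and Man1a (-0.24, 0.754) of CA1, Map3k15 (0.66, 0.338) and Amigo2 (-0.31, 0.675) of CA2, and Iyd (-0.41, 0.538) and Grik4 (-0.21, 0.908) of CA3.

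None of 8 newborn neuron markers was called, with a median of 0.23. Igfbpl1 was at 1.06 (adjusted p = 0.108) and Calb2 at 0.69 (0.809). The lists of cortex and thalamus (8 tested), choroid plexus (8), blood (5), oligodendrocyte (8), astrocyte (6), microglia (6) and endothelial (6) markers held no call, with medians of 0.08, -0.35, 0.10, 0.17, 0.08, 0.08 and -0.02. Pecam1 of the endothelium was at -0.18 (adjusted p = 0.991).

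**Figure D3:**
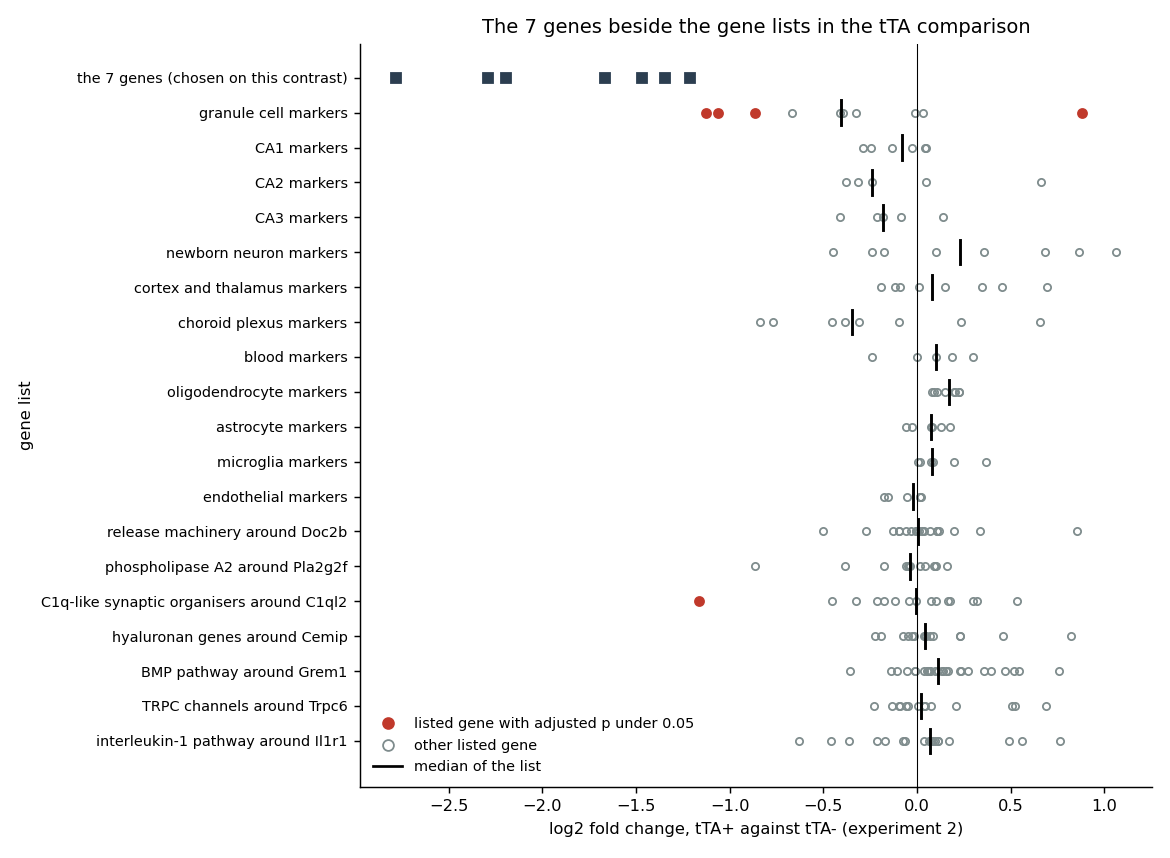
Log2 fold change, tTA+ against tTA- in experiment 2, of each tested gene of 19 lists (rows); red circles were called by edgeR, open circles were not, vertical bars are list medians, and dark squares are the 7 genes, which were chosen on this axis. The called genes are 4 granule cell markers and C1ql3 in the C1q-like list.

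Around C1ql2, 1 of 15 tested genes was called: its paralog C1ql3, another C1q-like synaptic organiser, at 58.5 CPM in tTA- and 27.0 CPM in tTA+ (log2 fold change -1.17, SE 0.124, edgeR adjusted p = 0.00277). The call was lost without SOR replicate 1 (-1.095, adjusted p = 0.148). C1ql1 was at 0.32 (SE 0.181) and not called, and Grik2, a kainate receptor subunit of mossy fibre synapses, was at -0.45 (adjusted p = 0.150). The median of the list was -0.01.

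The other pathways held no call. Of 20 genes of the release machinery around Doc2b (median 0.00), the calcium sensor Syt7 was at -0.50 (adjusted p = 0.172) and the paralog Doc2a at 0.86 (SE 0.220, 0.267). Of 13 other phospholipase A2 genes (median -0.04), Pla2g2d was at -0.86 (0.839) and Pla2g4a at 0.16 (1). Of 15 hyaluronan genes (median 0.04), the synthase Has2 was at 0.82 (0.647) and Hapln3 at 0.46 (1).

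Of 27 BMP pathway genes (median 0.11), the antagonist Fst was at 0.76 (adjusted p = 0.379) and the ligand Bmp3 at 0.54 (0.421). Among 14 tested genes of TRPC channels and the proteins that gate them (median 0.02), the phospholipase Plcb4 was at 0.52 (0.437). Among 18 tested genes of the interleukin-1 pathway (median 0.07), Il1rapl2 was at 0.77 (0.129) and the co-receptor Il1rap at -0.21 (0.935). In the SOR and DN comparisons no gene of any of the 19 lists was called.

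How the 7 genes varied among mice was described over the 11 libraries of experiment 1, after centring each gene on its group mean. Of 21 pairs, 13 had a Pearson r above 0, with a median of 0.23 and a range from -0.41 (Cemip with Grem1) to 0.79 (Doc2b with Pla2g2f). None of 28 relations, the pairs and each gene with the mean of the granule markers, had an adjusted p under 0.05 in permutation tests within groups. Doc2b with Pla2g2f had r = 0.79 (permutation p = 0.00723, adjusted p = 0.202) and Spearman's rho = 0.83 (permutation p = 0.0048, adjusted 0.112), and r = 0.94 without the 2 libraries farthest in Doc2b.

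C1ql2 with the mean of the granule markers had r = 0.77 (permutation p = 0.0199, adjusted p = 0.279; rho = 0.79, permutation p = 0.0080, adjusted 0.112), and r = 0.45 without the 2 farthest libraries. C1ql2 with Trpc6 had r = 0.72 (permutation p = 0.0931, adjusted p = 0.652; rho = 0.49, permutation p = 0.181, adjusted 0.588), which became -0.11 without the 2 farthest libraries, so that relation rests on them. Pla2g2f with the granule markers had r = 0.73 (permutation p = 0.0533, adjusted p = 0.497; rho = 0.75, permutation p = 0.0198, adjusted 0.184), and r = 0.64 without the 2 farthest libraries. The r with the granule markers was 0.62 for Trpc6, 0.37 for Doc2b, 0.24 for Il1r1, 0.01 for Cemip and -0.27 for Grem1. Without the 2 farthest libraries it was 0.05 for Trpc6, 0.51 for Doc2b, 0.38 for Il1r1, 0.45 for Cemip and -0.525 for Grem1.

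**Figure D4:**
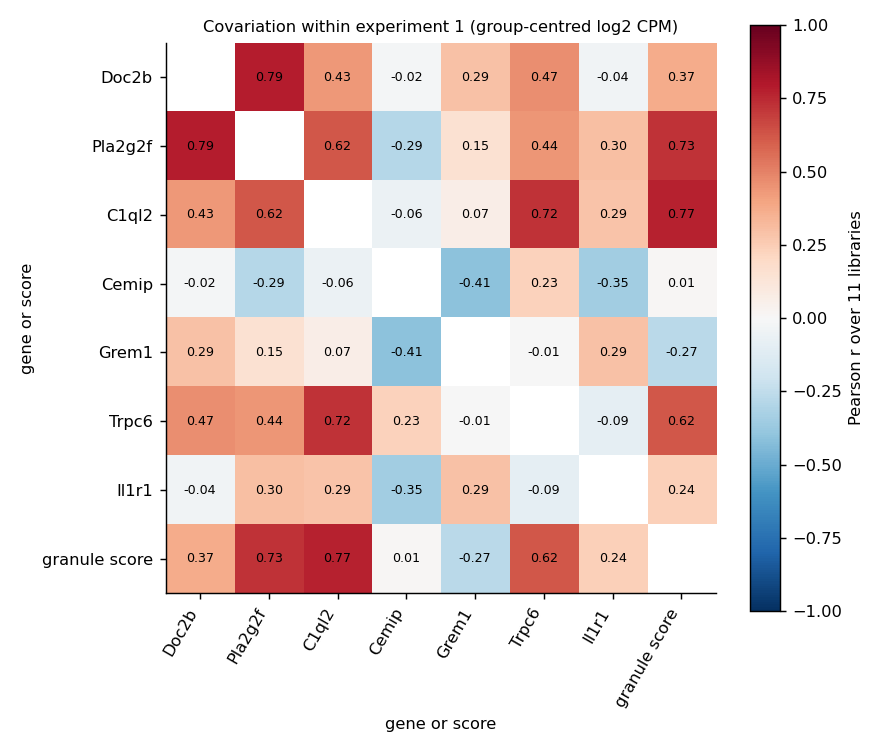
Pearson r between the 7 genes and the mean of the granule cell markers over the 11 libraries of experiment 1, on log2 CPM centred on group means; red is positive, blue negative, and the diagonal is blank. The strongest cell is Doc2b with Pla2g2f at 0.79, and the row of Cemip is near or below 0 except with Trpc6.

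Among 22384 genes, those most like each gene over these 11 libraries were as follows, given as the highest r of many and as a description only. Stk26 (r = 0.93), Ppp3r2 (0.93) and C030034I22Rik (0.91) were nearest to Doc2b, and F730043M19Rik (0.93), Slc7a14 (0.92) and 1700120C14Rik (0.92) to Pla2g2f. C1ql2 was nearest to Ptpn11 (0.94), Stxbp6 (0.94), which is in the granule list, and Gstm7 (0.94). Mybpc1 (0.93), Syt2 (0.91) and Ptgfr (0.90) were nearest to Cemip, and A430028G04Rik (0.93), Gm44680 (0.93) and Gm4217 (0.91) to Grem1. Trpc6 was nearest to Kcnh8 (0.95), Abca8a (0.94) and Pcyt1a (0.93), and Il1r1 to Btf3l4 (0.92), Zfand1 (0.92) and Gm15265 (0.91). No gene was named for more than 1 of the 7.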

How the data were processed

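The table deposited by the authors holds whole-number counts per gene in 51789 rows and 19 libraries. Per the submitters' processing notes it was made with STAR, SAMtools 1.6 and featureCounts 1.4.4 on mm10; annotation, strand and multiply mapped reads are not given in the sources used here. Depth bounds the precision, and without molecular identifiers reads may repeat a molecule. GENCODE M21 held 51596 of the identifiers; 12594 genes had no count.

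Here, edgeR 4.0.16 (R 4.3.3) quasi-likelihood F tests (robust, two-sided) were run on the counts after TMM scaling and filterByExpr, with Benjamini-Hochberg adjustment over all genes tested and calls at an adjusted p under 0.05. All 7 genes passed the filter in each comparison. The tTA and SOR comparisons came from 1 fit of 8 libraries with both terms. A standard error is the size of the log2 fold change over the root of F. CPM levels were scaled over all 19 libraries, and exon length is the union of annotated exons. Log2 CPM used a prior count of 2. Correlations used 100000 permutations within groups.

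The 7 genes, the lists and the tests were chosen with earlier results of these data known. Called genes of a list were named, at most 4 by smallest p, or otherwise at most 2 with the smallest p in the tTA comparison; Prox1 and some paralogs were added as values. A few listed genes are not reported here. Each of the 7 was named with the 3 genes of highest r. The alternatives were an adjusted p under 0.1, RLE and upper quartile scaling, no filter, at least 10 counts in every library, DESeq2 1.42.0, limma-voom (limma 3.58.1), all 19 libraries in 1 fit, covariates left out, tTA+ mice alone, a replicate block and each library left out. The edgeR fits, apart from the test of tTA by exposure, were tried on simulated counts, and a separately written permutation test on made data. The other steps were not tried in this way.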

Additional observations from a re-analysis of the deposited data

Results flagged for a closer look

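Of 28 combinations of the 7 genes with the 4 groups of the labels, 2 held a library that stood apart from the rest of its group on log2 CPM. Doc2b was at 57.61 CPM in SOR replicate 1 of experiment 2, and Pla2g2f was at 7.327 CPM in the same library. On log2 CPM, the gap to the nearest other library was 0.933 and 0.892 of the range of the 4 SOR libraries. Both are above the critical value of 0.829 for groups of 4. This library is the only tTA- library of its group, and the genes were chosen for a large difference between tTA genotypes, so that it stands apart restates the choice. The rate of about 1 in 20 groups that chance flags does not apply to a group that mixes genotypes in this way.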

How the results depend on the processing

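The 7 genes were lower in tTA+ mice in 126 of 126 fits under the alternatives run, a direction fixed by the choice of the genes, whose groups do not overlap, and so no sign of stability. Values moved by more than 1 SD of log2 CPM in 3 of these fits, all with the replicate block: -3.12 for Pla2g2f, -1.78 for Cemip and -0.94 for Il1r1. The 86 genes called in the tTA comparison became 136 at an adjusted p under 0.1, 265 with no filter, 252 with DESeq2, 383 with all 19 libraries, 0 with the replicate block (edgeR; 432 with an unadjusted p under 0.05), and 10 (without SOR replicate 1) to 288 (without SOR replicate 3) when 1 library was left out. It was also 24, 25, 24 and 22 without homecage replicates 1 to 4, and 56 without SOR replicate 4. For SOR against homecage, 11 calls became 21 at an adjusted p under 0.1, 7 with upper quartile scaling, 82 with no filter, 93 with DESeq2, 100 with all 19 libraries, 20 with tTA left out, 1 with the replicate block, 0 in tTA+ mice alone (edgeR; 374 unadjusted), and 1 to 49 when 1 library was left out, the 49 again without SOR replicate 3. The 4447 calls between experiments became 7957 with all 19 libraries and 2549 (without control replicate 6) to 6588 (without SOR replicate 2) when 1 was left out, and the 2 of 7 genes past the threshold there, a count from which nothing is read, became 4 at an adjusted p under 0.1. The causes were not tested. DN against control gave 2 calls and none of the 7 genes in every alternative. None of the 7 was called for SOR in any of 133 fits (lowest adjusted p 0.37) or for DN in any of 140 (0.87). Directions turned only in values that were not called. For SOR these were Pla2g2f at 0.0412 with the replicate block, C1ql2 (-0.57), Grem1 (-0.14), Trpc6 (-0.27) and Il1r1 (-0.0413) with tTA left out, Cemip (0.0320), Grem1 (-0.0735) and Trpc6 (-0.0604) in tTA+ mice alone, and Trpc6 at -0.0302 with upper quartile scaling and -0.0114 with at least 10 counts in every library. Leaving out 1 library gave ranges of -0.174 to 0.0812 for Pla2g2f, -0.0831 to 0.181 for C1ql2, -0.167 to 0.0312 for Cemip, -0.0644 to 0.327 for Grem1 and -0.0729 to 0.0586 for Trpc6. Between experiments Trpc6 was at 0.0065 with upper quartile scaling, and leaving out 1 library gave -0.184 to 0.0554 for Trpc6 and -0.0937 to 0.102 for Pla2g2f. Of the correlations, Doc2b with Cemip (0.005), Doc2b with Il1r1 (0.0127) and Grem1 with Trpc6 (0.0065) turned with upper quartile scaling, and Grem1 with Trpc6 (0.0789) and Cemip with the granule markers (-0.0415) without centring. Replicate numbers were not taken as pairs in the main fits. Deviations of same-numbered libraries from their group means correlated at -0.05 to 0.39 in experiment 1 and 0.08 to 0.55 in experiment 2. Not every library correlated best with its own number, while number 2 of experiment 2 did so both ways. The groups of experiment 2 mix tTA genotypes, so these deviations carry the tTA difference too and cannot settle whether mice were paired. With the block, number 2 is the only one with both tTA genotypes, and C1ql3, Dsp, Stxbp6, Glis3 and Tdo2 kept their direction without a call.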
